A study of Mus musculus with 38 samples.

Results

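Tmem97, Ebp, Dhcr7 and Pgrmc1 encode proteins of the endoplasmic reticulum that bind haloperidol or were proposed as sigma sites, and their expression was described in mouse brain and liver. The members were taken by exact gene symbol, and each had a probe, so that 4 of 18820 genes with a probe of a single name were members. Tmem97 had 2 such probes and the brighter was used, also in all correlations with other genes. Which of the 2 lies in the gene itself cannot be told without probe coordinates. C57BL/6J mice were given haloperidol or placebo from slow-release pellets over 30 days. Brain was measured on 10 Affymetrix arrays of each treatment and liver on 9 of each, and each array was taken as 1 mouse. C57BL/6J is an inbred laboratory strain, and haloperidol is an antipsychotic that blocks dopamine receptors. The labels give neither age nor sex, and pooling of animals is not stated. Values are log2 expression values made by the authors with RMA, which corrects background, equalises the arrays and summarises the probes of each set. A difference of 1 is a doubling.

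Cholesterol is built from acetyl-CoA through mevalonate and squalene to lanosterol, which is then trimmed and reduced to cholesterol. EBP, the emopamil-binding protein, is the isomerase that moves a double bond in the sterol ring, and DHCR7, 7-dehydrocholesterol reductase, carries out the last reduction of 1 of the branches of the pathway. TMEM97 is the sigma-2 receptor, a partner of the lysosomal cholesterol transporter NPC1, and shares the EXPERA domain with EBP. PGRMC1 is a heme-binding membrane protein with a cytochrome b5-like fold that was once proposed as the sigma-2 site and that binds cytochrome P450 enzymes, among them the sterol demethylase CYP51. Sterol synthesis genes, and Tmem97 with them, are known targets of SREBP2, a transcription factor released when membrane sterol is low. The brain makes its own cholesterol and the liver supplies most of the rest of the body.

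The promoters of the 4 members are shown because Dhcr7 varied with Ebp and with Tmem97 between livers. The other liver pairs did not pass, which holds for Tmem97 with Ebp and for Pgrmc1 with each member. In brain Tmem97 varied with Pgrmc1 (r = 0.56, adjusted permutation p = 0.0326, and 0.0663 for the rank correlation). A link between the motifs and these relations was not tested. Each sequence is 300 bases from RefSeq on build GRCm38.p6, from 250 before to 50 after the start of the gene and 5′ to 3′ on its own strand. Capitals mark the letters CCAAT, the core of NF-Y sites, and the letters GGGCGG, the GC box, on either strand. Such sites often stand beside those of SREBP.

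Tmem97, chr11:78550686-78550985, minus strand: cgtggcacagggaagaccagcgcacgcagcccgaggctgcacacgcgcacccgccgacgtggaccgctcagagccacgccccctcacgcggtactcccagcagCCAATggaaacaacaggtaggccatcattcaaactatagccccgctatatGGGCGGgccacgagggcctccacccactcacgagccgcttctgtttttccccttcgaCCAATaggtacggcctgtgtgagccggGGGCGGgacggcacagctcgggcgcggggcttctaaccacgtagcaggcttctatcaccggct
Ebp, chrX:8193463-8193762, minus strand: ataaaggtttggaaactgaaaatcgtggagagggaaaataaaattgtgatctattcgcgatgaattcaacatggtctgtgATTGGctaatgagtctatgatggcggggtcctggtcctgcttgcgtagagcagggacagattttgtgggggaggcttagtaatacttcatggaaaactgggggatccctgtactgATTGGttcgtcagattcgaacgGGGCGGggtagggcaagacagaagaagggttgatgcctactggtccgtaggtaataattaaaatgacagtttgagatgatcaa
Dhcr7, chr7:143829964-143830263, plus strand: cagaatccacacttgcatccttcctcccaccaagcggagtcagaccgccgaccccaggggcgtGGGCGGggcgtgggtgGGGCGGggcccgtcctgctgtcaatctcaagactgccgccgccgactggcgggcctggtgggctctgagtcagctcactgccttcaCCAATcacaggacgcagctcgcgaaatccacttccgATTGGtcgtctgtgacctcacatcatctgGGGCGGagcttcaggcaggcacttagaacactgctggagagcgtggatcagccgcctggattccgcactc
Pgrmc1, chrX:36597943-36598242, plus strand: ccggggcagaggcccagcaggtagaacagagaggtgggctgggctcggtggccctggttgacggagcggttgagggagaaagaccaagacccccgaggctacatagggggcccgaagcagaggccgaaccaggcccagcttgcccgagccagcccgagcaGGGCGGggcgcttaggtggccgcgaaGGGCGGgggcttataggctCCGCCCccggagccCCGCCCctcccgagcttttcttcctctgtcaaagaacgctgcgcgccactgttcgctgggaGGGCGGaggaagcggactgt

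CCAAT occurred 2 times, on either strand, in the windows of Tmem97, Ebp and Dhcr7 and 0 times in that of Pgrmc1. Of 32851 such windows, 37.4% held it at least once and 11.7% held it 2 or more times. GGGCGG occurred 2 times for Tmem97, 1 time for Ebp, 3 times for Dhcr7 and 5 times for Pgrmc1. Of all windows 35.7% held at least 1 and 19.5% held 2 or more. The letters TCACNCCAC, a form of the sterol regulatory element, were in none of these 4 windows and in 1.24% of all. RefSeq lists 3 starts for Dhcr7, and the one shown was chosen after the motifs were seen. The other two windows held CCAAT 0 times and GGGCGG 1 and 0 times.

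Tissue markers matched the labels: Snap25, a synaptic gene, was between 12.69 and 12.88 on all brain arrays, and Alb, the albumin gene, between 13.13 and 13.27 on all livers. Alb lay between 3.93 and 4.51 on 19 brain arrays and at 11.11 on haloperidol 4T, named by the tag of its title. Gh, the growth hormone gene of the pituitary, was high in 5 brain arrays of both groups, up to 11.49. The median of all probes was lower in haloperidol brains (6.19 ± 0.072, SD, n = 10) than in placebo brains (6.33 ± 0.044), and in liver it was 4.89 ± 0.090 with haloperidol and 4.80 ± 0.082 with placebo (n = 9). The distributions of brain and liver arrays differ as they would if normalized apart, so levels are compared within a tissue.

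**Figure D1:**
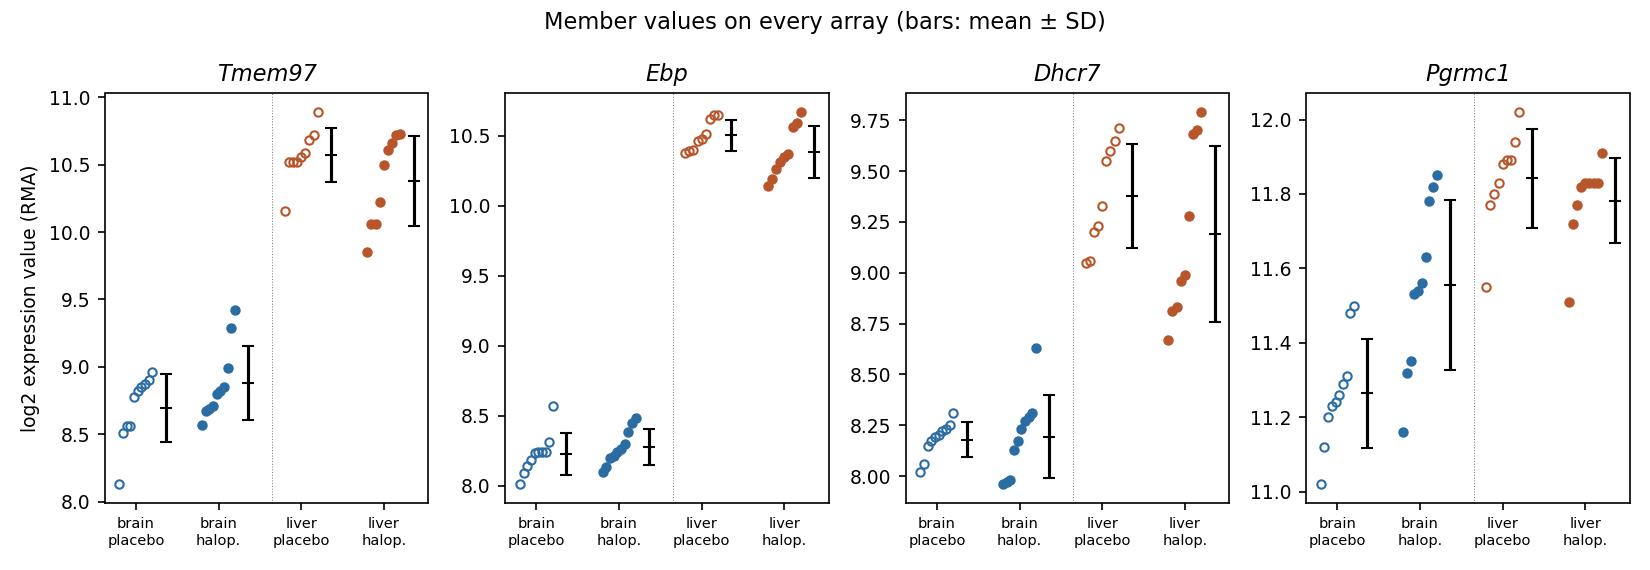
Log2 expression value of each member on every array (circles, open for placebo and filled for haloperidol, blue for brain and orange for liver), with the group mean ± SD as black bars. Each panel has its own axis, and levels are not comparable between tissues. Pgrmc1 reached above the highest placebo brain in 7 of 10 haloperidol brains, and Dhcr7 was spread over 1.12 log2 units in haloperidol livers.

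Pgrmc1 was the member that rose in brain. It was between 11.02 and 11.50 in placebo brains, with a median of 11.25, and between 11.16 and 11.85 in haloperidol brains, with a median of 11.55. The groups overlapped, but 7 of 10 haloperidol arrays lay above the highest placebo array and 9 lay above the placebo mean. The mean rose from 11.26 ± 0.15 to 11.55 ± 0.23 (SD, n = 10 each), a log2 change of 0.29 (SE 0.083, 95% interval 0.12 to 0.46) or 1.22-fold, with a limma adjusted p of 0.0131. This made 1 of 4 members called, higher, where 30.4% of the 12547 genes tested were called, 15.2% higher and 15.2% lower. In whole tissue, more RNA per cell and more cells that express a gene cannot be told apart.

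The rise of Pgrmc1 moved with the array-wide difference of the brain arrays. Over the 20 brains, Pgrmc1 less its group mean correlated with the array median at r = -0.62. Fitted with the array median as a covariate, the change was 0.02 (limma adjusted p = 0.981), and with the first principal component over genes it was -0.02 (0.959). Both covariates differ between the groups, and their part in the result cannot be told apart from treatment. When each array's median was subtracted the change was 0.43, and after a second quantile normalization it was 0.19 (0.0373). It was 0.25 (0.051) in a fit that left out 3 brain arrays taken as standing apart, namely placebo 1L and the haloperidol arrays 4N and 4T. Microglia and macrophage markers moved in the same direction, with 5 of 7 higher, where 15.2% of all genes were. Their summed level was 10.53 to 11.14 in placebo and 10.86 to 11.59 in haloperidol brains. Of 5 oligodendrocyte markers tested, 3 were higher, and summed levels were 11.41 to 12.22 and 11.68 to 12.30. With the array median as a covariate 0 of 12547 brain genes passed, markers of both cell types included. The part of these cells in the result was not tested.

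Tmem97 spanned 8.13 to 8.96 in placebo brains, with a median of 8.80, and 8.57 to 9.42 in haloperidol brains, with a median of 8.81. The groups overlapped, with 3 haloperidol brains above every placebo brain, and the 2 highest arrays were haloperidol 4N at 9.42 and 4T at 9.29. The mean was 8.69 ± 0.25 with placebo and 8.88 ± 0.28 with haloperidol (SD, n = 10 each), a difference of 0.19 (SE 0.11, 95% interval -0.04 to 0.42, limma adjusted p = 0.19). In the fit that left out those 3 arrays the difference was 0.05 (0.696). It was 0.32 with the array median subtracted (0.0481) and -0.23 with that median as a covariate (0.919). The dimmer Tmem97 probe gave 0.16 (SE 0.13, limma adjusted p = 0.381), and followed the brighter one over the 20 brains at r = 0.77. Array 4T, the one with high Alb, was among the 2 highest, and without it alone the difference was 0.14.

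The mean of Tmem97 in brain also rose with the digit of the tag in the sample titles, whose meaning the labels do not give. Its mean over both treatments was 8.50 for digit 1, 8.71 for digit 2, 8.87 for digit 3 and 9.07 for digit 4. In a limma F test of the digit beside treatment the unadjusted p was 0.000468 and the adjusted p 0.0876, where 0.135% of genes passed. The test was added after the values were seen. The other members also had their lowest brain mean over both treatments in digit 1 and their highest in digit 4. These means were 11.25 and 11.54 for Pgrmc1, 8.18 and 8.39 for Ebp and 8.05 and 8.34 for Dhcr7. Digit 1 held 2 haloperidol and 3 placebo brains and digit 4 held 3 and 2, so these means mix digit and treatment. Among haloperidol brains Pgrmc1 was highest in digit 3 (11.82, with 11.57 in digit 4). Ebp was lowest there in digit 2 (8.17, with 8.27 in digit 1). In the same F test the unadjusted p of Pgrmc1, Ebp and Dhcr7 were 0.0991, 0.0726 and 0.0186 (adjusted 0.458, 0.419 and 0.309). For Dhcr7 in liver it was 0.0173 (adjusted 0.159). Haloperidol minus placebo within a digit was 0.22, 0.04, 0.06 and 0.30 for Tmem97, each from 2 or 3 arrays a group. For Pgrmc1 the same differences were 0.16, 0.32, 0.57 and 0.09.

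Ebp and Dhcr7 did not pass in brain, and their means differed little between treatments. Ebp lay between 8.01 and 8.57 in placebo brains (median 8.24) and between 8.10 and 8.48 in haloperidol brains (median 8.25). Its mean was 8.23 ± 0.15 with placebo and 8.28 ± 0.13 with haloperidol (SD, n = 10 each), a difference of 0.05 (95% interval -0.08 to 0.18, limma adjusted p = 0.567). All haloperidol values lay within the placebo range. Dhcr7 lay between 8.02 and 8.31 in placebo brains (median 8.19) and between 7.96 and 8.63 in haloperidol brains (median 8.20). Haloperidol brains lay on both sides of the placebo range, with 3 below it and 2 above it. The means were 8.18 ± 0.087 and 8.19 ± 0.21 (SD, n = 10 each), a difference of 0.02 (95% interval -0.13 to 0.16, limma adjusted p = 0.882). Dhcr7 was highest in haloperidol 4T, at 8.63, the array with high Alb, and without that array the difference was -0.03.

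In liver all members had lower means with haloperidol, and none passed. The median change over all liver genes tested was also below 0, at -0.02 (quartiles -0.11 and 0.07). In limma 0 of 12547 liver genes passed (0% called), while 1316 had an unadjusted p under 0.05, and a Wilcoxon test also called 0, with 1127 at that level. Tmem97 lay between 10.16 and 10.89 in placebo livers (median 10.56) and between 9.85 and 10.73 in haloperidol livers (median 10.50). Of the 9 haloperidol livers, 3 lay below the lowest placebo liver and 0 above the highest. The means were 10.57 ± 0.20 and 10.38 ± 0.33 (SD, n = 9 each), a difference of -0.19 (95% interval -0.45 to 0.06, limma adjusted p = 0.571). The dimmer probe gave -0.20 (limma adjusted p = 0.579) and followed the brighter one at r = 0.91 over 18 livers.

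Ebp lay between 10.38 and 10.65 in placebo livers (median 10.48) and between 10.14 and 10.67 in haloperidol livers (median 10.35). Of the 9 haloperidol livers, 6 lay below the placebo range and 1 above it. The means were 10.50 ± 0.11 and 10.38 ± 0.19 (SD, n = 9 each), a difference of -0.12 (95% interval -0.28 to 0.04, limma adjusted p = 0.58). Dhcr7 lay between 9.05 and 9.71 in placebo livers (median 9.33) and between 8.67 and 9.79 in haloperidol livers (median 8.99). Haloperidol livers again lay on both sides, with 5 of 9 below the placebo range and 1 above it. The means were 9.38 ± 0.26 and 9.19 ± 0.43 (SD, n = 9 each), a difference of -0.19 (95% interval -0.51 to 0.13, limma adjusted p = 0.666). Dhcr7 had the widest spread of the 4 members in liver, and a difference in spread between treatments was not tested.

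Pgrmc1 did not pass in liver. It lay between 11.55 and 12.02 in placebo livers (median 11.88) and between 11.51 and 11.91 in haloperidol livers (median 11.83). The means were 11.84 ± 0.13 and 11.78 ± 0.11 (SD, n = 9 each), a difference of -0.06 (95% interval -0.20 to 0.08, limma adjusted p = 0.768). The upper bound of 0.08 lies below the brain change of 0.29. Tested directly, the liver change of Pgrmc1 minus its brain change was -0.35 (SE 0.11, 95% interval -0.57 to -0.13, limma adjusted p = 0.0189), which made 1 of 4 members called, where 23% of 10869 genes were called, 13.9% in that direction and 9.16% in the other. With the tag that a brain and a liver array share as a fixed block the value was -0.35 and the call ended (limma adjusted p = 0.0523). For Tmem97 the difference between tissues was -0.38 (SE 0.17, limma adjusted p = 0.0921), for Ebp -0.17 (0.214) and for Dhcr7 -0.20 (0.395).

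Some genes related to Pgrmc1 were also higher in brain. Of 9 tested genes of the PGRMC family and of heme and cytochrome P450 partners, Pgrmc1 itself and 4 others were higher and 0 lower, where 15.2% of all genes were higher. The median change of the list was 0.21 against -0.02 over all genes. The list was chosen with earlier results of these data known, so its count is a description and was not tested. Pgrmc2, Cyb5b, Cyb5d2 and Hmox1 did not pass. Nenf, the gene of neudesin, a secreted relative of PGRMC1, rose from 7.90 ± 0.13 to 8.31 ± 0.27 (SD, n = 10 each), and 8 of 10 haloperidol brains lay above the highest placebo brain. Its log2 change was 0.41 (SE 0.090, limma adjusted p = 0.00481). Cyb5r3, which encodes the reductase of cytochrome b5, rose by 0.30 (SE 0.071, limma adjusted p = 0.00586), with 10 of 10 haloperidol brains above the placebo mean. Cyb5a, cytochrome b5 itself, rose by 0.26 (0.00934), and Fech, the ferrochelatase that completes heme and binds PGRMC1, by 0.21 (0.0175). The closest relative, Pgrmc2, was at 0.00 (95% interval -0.13 to 0.12). Of the list, 6 were higher when the array median was subtracted (32.6% of all genes), 3 in the fit without the 3 arrays (9.44%), and 0 with the array median as a covariate (0%). In liver 0 of the 9 passed, and Nenf was at -0.23 (limma adjusted p = 0.41). Nenf differed between tissues (liver minus brain -0.64, limma adjusted p = 0.00186), as did Cyb5r3 (-0.33, 0.0208) and Cyb5a (-0.26, 0.0284). The call of Cyb5r3 ended with array weights (-0.25, limma adjusted p = 0.0724) and that of Cyb5a with the tag as a fixed block (0.0686).

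Relatives of EBP and TMEM97 moved both ways in brain. Ebpl, the gene of an EBP-like protein, rose from 7.07 ± 0.19 to 7.48 ± 0.30 (SD, n = 10 each), by 0.42 (SE 0.11, limma adjusted p = 0.00765), and 7 of 10 haloperidol brains lay above every placebo brain. Tm6sf2, another EXPERA gene, known in liver for its part in lipoprotein secretion, fell from 7.21 ± 0.18 to 6.58 ± 0.36, a change of -0.63 (SE 0.12, limma adjusted p = 0.00393). All 10 haloperidol brains lay below its placebo mean and 8 below its whole placebo range. In the EXPERA and sigma list 1 of 4 tested genes was thus higher and 1 lower, where 15.2% of all genes were higher and 15.2% lower, with a median of 0.12, and in liver 0 of 4 passed. Neither passed with the array median or the first component as a covariate (0.13 and 0.04 for Ebpl, -0.08 and -0.40 for Tm6sf2). With a stricter filter that kept 9410 brain genes, Tm6sf2 was among the dim genes left out. The list then had 1 of 3 genes higher and 0 lower, where 17.7% of all genes were higher and 18.3% lower.

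**Figure D2:**
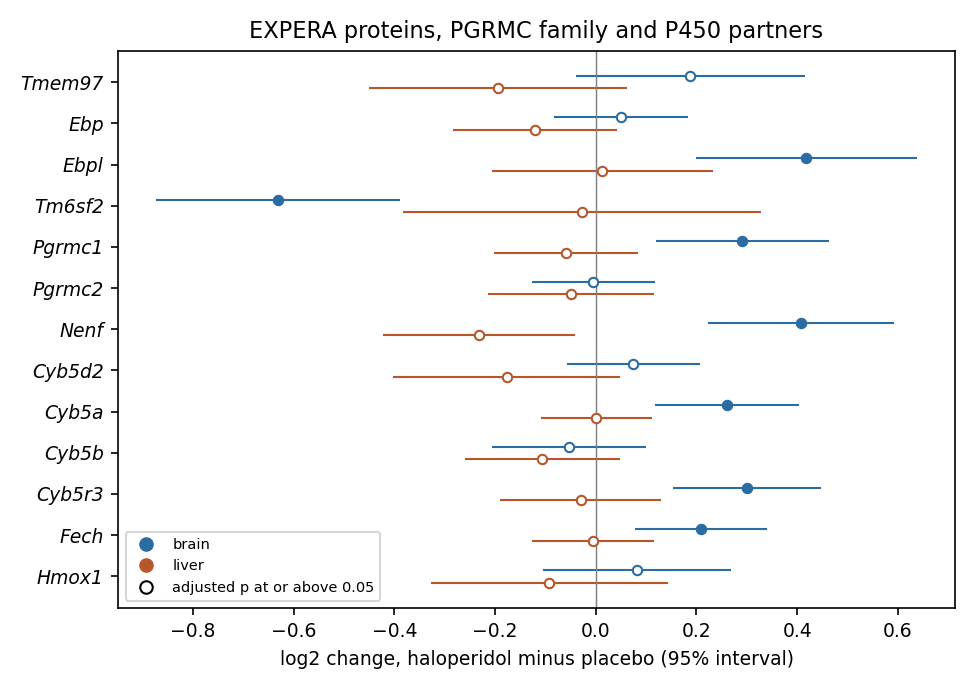
Log2 change with haloperidol (horizontal axis, points, with 95% intervals as lines) of genes of the EXPERA and PGRMC lists in brain (blue) and liver (orange); filled points had a limma adjusted p under 0.05. In brain Ebpl, Pgrmc1, Nenf, Cyb5a, Cyb5r3 and Fech lie above 0 and Tm6sf2 below it, while no liver point is filled.

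The enzymes around EBP and DHCR7 were compared step by step. In brain, of 7 tested enzymes from acetyl-CoA to squalene, 1 was higher and 0 lower (median change 0.09), and of 11 from squalene to cholesterol, 2 were higher and 0 lower (median 0.07). These counts are near the 15.2% of all genes that were higher. These were Idi1, the isomerase of isopentenyl diphosphate, at 0.44 (limma adjusted p = 0.0251), Cyp51, the gene of the lanosterol demethylase, at 0.31 (0.0198) and Msmo1, the sterol C4 methyl oxidase, at 0.32 (0.0172). Tm7sf2, the sterol C14 reductase that acts between CYP51 and EBP, was at 0.22 (0.0699). Sc5d, the desaturase between EBP and DHCR7, was at 0.12 (0.108), beside 0.05 for Ebp and 0.02 for Dhcr7. After subtraction of the array median 4 and 5 enzymes of the lists were higher, when 32.6% of all genes were. In the fit without the 3 arrays 0 passed in either list. All 38 arrays in 1 fit also ended these calls (limma adjusted p = 0.121 for Idi1, 0.178 for Cyp51 and 0.071 for Msmo1). The call of Idi1 also ended when placebo 1N or haloperidol 3B, 3R or 4N was left out (largest adjusted p 0.0535).

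Genes that sense and move sterol gave 0 higher and 3 lower of 9 in brain, where 15.2% of all genes were higher and 15.2% lower. Srebf2, which encodes SREBP2, was lower by a log2 change of -0.20 (limma adjusted p = 0.0442), Scap, its escort, by -0.19 (0.0428) and Mbtps1, a protease that cuts SREBP2, by -0.19 (0.0446). When the array median was subtracted these 3 were at -0.07, -0.05 and -0.05 with none called. The list then had 3 of 9 higher and 0 lower, where 32.6% of all genes were higher and 3.72% lower. Their calls also ended without the filter on dim genes (limma adjusted p 0.0635 to 0.0658). Leaving out 1 array at a time, Srebf2 and Scap passed in 6 of 20 fits each and Mbtps1 in 10 of 20. Npc1, whose protein binds TMEM97, was at -0.14 (0.123). Of the sterol removal genes 0 of 5 passed in brain and 0 of 6 in liver, and Cyp46a1, the neuronal cholesterol hydroxylase, was at -0.19 (0.0784), and Abca1, a cholesterol exporter, at -0.11 (0.112) in brain. Cyp46a1 was called lower in 5 of 15 alternatives, with quantile normalization (limma adjusted p = 0.0482), the tag digit as a block (0.0316), array weights (0.0193), a Wilcoxon test (0.0473) and without 4T (0.0323).

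In liver 0 enzymes of either list passed. The median change was -0.11 for both lists against -0.02 over all genes, but it depended on the fit. With the tag digit as a block the medians were 0.04 and -0.005, and with array weights -0.02 and -0.03. With the first component as a covariate they were -0.03 and 0.02. Over all genes the median was -0.02 in each of these fits. With the array median subtracted they were -0.19 and -0.20, against -0.11 over all genes. Tm7sf2 was at -0.24 (SE 0.13, limma adjusted p = 0.51), Mvd, the mevalonate diphosphate decarboxylase, at -0.24 (0.729) and Hmgcs1, the mevalonate pathway synthase, at 0.14 (0.775). For Tm7sf2 the tissues differed, with liver minus brain at -0.45 (SE 0.16, limma adjusted p = 0.0324), and the call ended with array weights (-0.33, 0.0718) and with the tag as a fixed block (-0.44, 0.102). For Cyp46a1 the liver was at 0.35 (0.51) and the difference between tissues at 0.55 (0.0483). That call ended without the filter on dim genes (0.071) and with the tag as a random (0.054) or fixed block (0.0596). In the sterol control list Mylip, which encodes a ubiquitin ligase, was at 0.11 (0.727) and Scap at 0.09 (0.772). Nr1h3, the sterol receptor LXR alpha, was at -0.10 (0.565) and Cyb5d2, neuferricin, of the PGRMC family, at -0.18 (0.562).

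**Figure D3:**
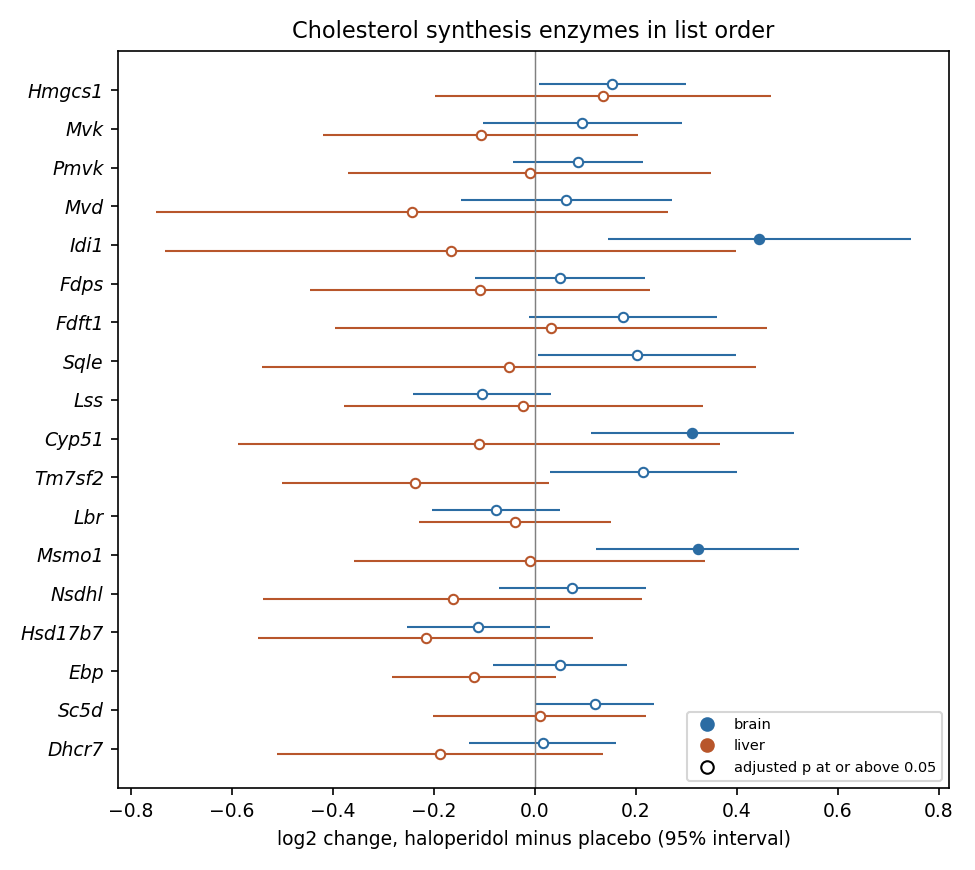
Log2 change with haloperidol (horizontal axis, points, with 95% intervals as lines) of the cholesterol synthesis enzymes from Hmgcs1 at the start to Dhcr7 at the end, in brain (blue) and liver (orange); filled points had a limma adjusted p under 0.05. Idi1, Cyp51 and Msmo1 are filled in brain, and Ebp and Dhcr7 lie near 0 there.

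Between livers Dhcr7 varied with Tmem97 and with Ebp beside the treatment. With each group's mean removed, Tmem97 and Dhcr7 had Pearson r = 0.79 and Spearman rho = 0.73 over 18 livers (permutation p = 0.00089 and 0.00349, 0.00993 and 0.0184 after Benjamini-Hochberg over 12 pairs). Ebp and Dhcr7 had r = 0.74 and rho = 0.71 (permutation p = 0.00256 and 0.00459, adjusted 0.00993 and 0.0184). Without the 2 livers farthest from the median of the first gene, r was 0.73 and 0.60. After regression on the array median, r was 0.80 and 0.74. Tmem97 and Ebp had r = 0.47 and rho = 0.45 (permutation p = 0.0879 and 0.0978, adjusted 0.117 and 0.147). The 3 livers with the highest Dhcr7 among those given haloperidol, 1B, 1R and 4L, were also the 3 highest for Ebp and for Tmem97. Within treatments r of Ebp with Dhcr7 was 0.27 in 9 placebo and 0.91 in 9 haloperidol livers, and that of Tmem97 with Dhcr7 was 0.61 and 0.85. For Tmem97 with Ebp it was -0.15 and 0.69. The difference between treatments was not tested. All 4 members had their lowest liver mean over both treatments in tag digit 2 (Tmem97 10.18, Ebp 10.38, Dhcr7 8.88 and Pgrmc1 11.73). Digit 2 held 3 haloperidol livers and 1 placebo liver, so these means mix digit and treatment. Among placebo livers Ebp was highest in digit 2, at 10.62. Arrays were not permuted within digit, and the part of the digit in these relations was not tested.

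For Pgrmc1 no relation in liver passed after adjustment. Its r was 0.12 with Dhcr7 and -0.01 with Ebp (permutation p = 0.642 and 0.97). These pooled values stand over opposite signs, since r with Dhcr7 was -0.63 in 9 placebo and 0.65 in 9 haloperidol livers, and r with Ebp -0.59 and 0.39. With Tmem97 it was 0.46 (permutation p = 0.0434, adjusted 0.0868), and 0.21 without haloperidol 2T and placebo 2B, so that relation rests on those livers. It was 0.05 in placebo and 0.79 in haloperidol livers. These differences between treatments were not tested.

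Between brains Tmem97 varied with the other members. Tmem97 had r = 0.66 with Ebp, 0.63 with Dhcr7 and 0.56 with Pgrmc1 over 20 brains (permutation p = 0.00271, 0.00331 and 0.0136, adjusted 0.00993, 0.00993 and 0.0326). The rho of these pairs was 0.58, 0.68 and 0.51 (permutation p = 0.00895, 0.00148 and 0.0276, adjusted 0.0268, 0.0178 and 0.0663). Without haloperidol 4N and placebo 1N, the arrays farthest out for Tmem97, r was 0.58, 0.64 and 0.39. Against the array median the 4 members had r of -0.69 to -0.52 in brain and -0.28 to -0.01 in liver. After regression on the array median, the 3 brain pairs were at 0.43, 0.44 and 0.23. Over both treatments together, all 4 members had their lowest mean in tag digit 1 and their highest in digit 4. Within each treatment this held for Tmem97 and Dhcr7 but not for Ebp and Pgrmc1. Arrays were permuted within treatment but not within digit, so these p assume that the digit does not matter. The part of the digit in these relations was not tested. The remaining pairs, Ebp with Dhcr7 (r = 0.40), Ebp with Pgrmc1 (0.43) and Dhcr7 with Pgrmc1 (0.17), had adjusted permutation p of 0.103, 0.0892 and 0.661.

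**Figure D4:**
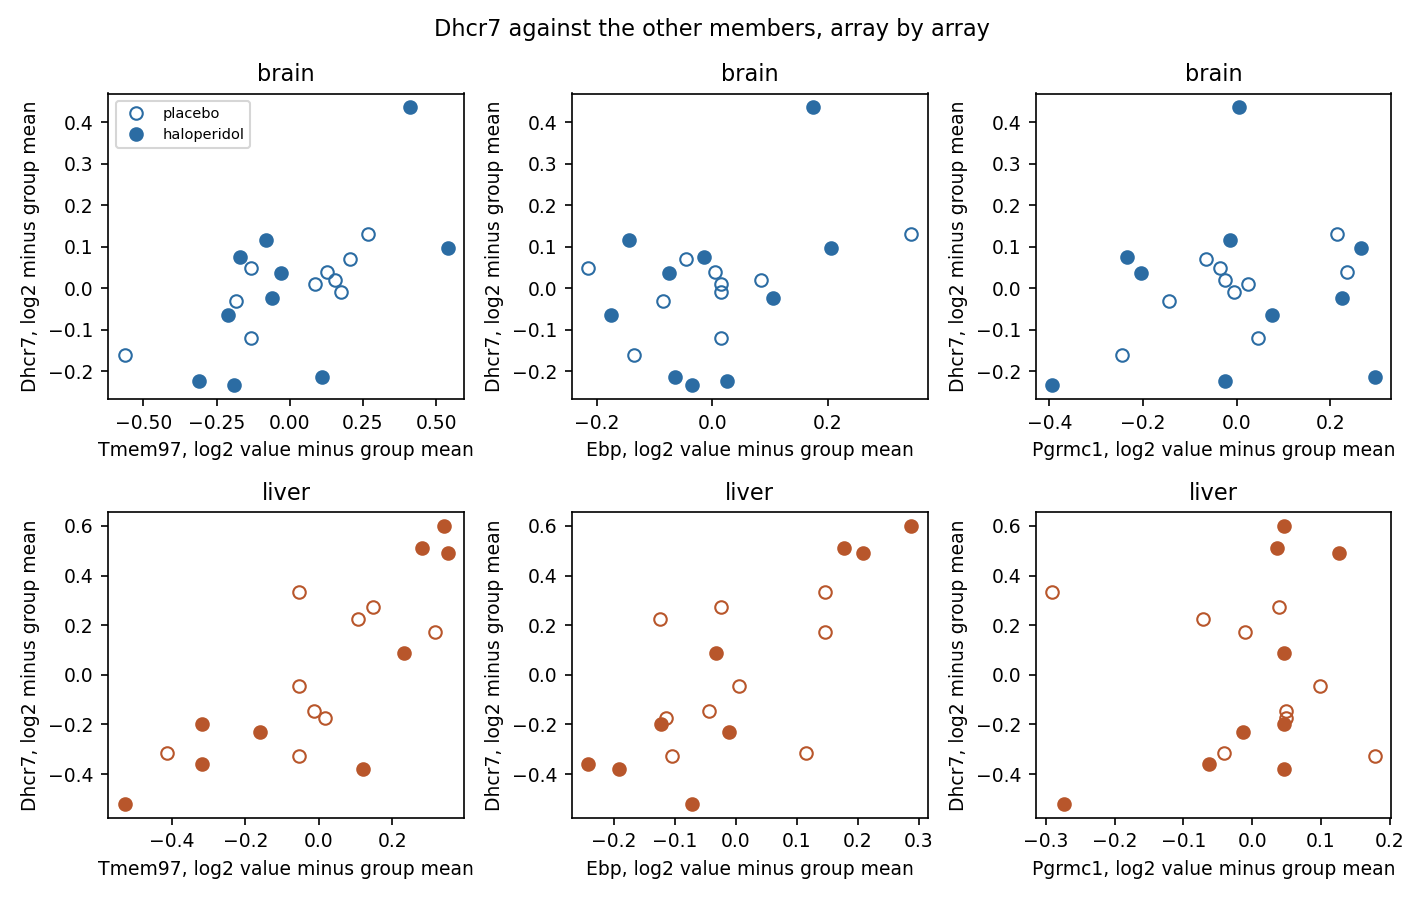
Dhcr7 (vertical axis) against Tmem97, Ebp and Pgrmc1 (horizontal axes), each as log2 value minus the mean of its group, 1 point per array, in brain (top, blue) and liver (bottom, orange), open for placebo and filled for haloperidol. In liver Dhcr7 rises with Tmem97 (r = 0.79) and Ebp (0.74) and r with Pgrmc1 is 0.12, from -0.63 in placebo and 0.65 in haloperidol livers.

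Several sterol enzymes were among the genes most like Dhcr7 in liver. By Pearson r over 18 livers, group means removed, the 3 most alike of 12546 genes were Mpv17l, a peroxisomal and mitochondrial membrane protein gene (r = 0.91, rho = 0.93), Tm7sf2 (r = 0.90, rho = 0.87) and Erg28 (r = 0.88, rho = 0.87). Erg28 encodes a scaffold that holds sterol enzymes together. Nsdhl, the sterol C4 decarboxylase, ranked at 4 (r = 0.88), Sqle, the squalene epoxidase, at 5 (0.86) and Fdps, farnesyl diphosphate synthase, at 6 (0.83). Of the 17 other enzymes tested, 13 had r over 0.70 with Dhcr7, where 0.638% of all genes did, and the median r was 0.77 against 0.07 over all genes. Lbr, which shares the C14 reductase activity of TM7SF2 and is a protein of the nuclear lamina, stood outside at 0.15. The median r of the enzymes was 0.64 in placebo and 0.87 in haloperidol livers alone, 0.76 without haloperidol 2T and 0.78 with the tag digit also removed. These relations are a description of 18 arrays that share a normalization, and of the 9 genes of the sterol control list Stard4, a sterol carrier, was at 0.77, Insig1 at 0.45, Srebf2 at 0.17, Scap at 0.02 and Insig2, the lowest, at -0.42.

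For Ebp and Tmem97 the median r with the enzymes was lower, a difference that was not tested. For Ebp the most alike in liver were Copz1, a vesicle coat gene (r = 0.85, rho = 0.80), Tm7sf2 (0.83, 0.80) and Prok1, the gene of prokineticin (0.82, 0.86). Its median r with 17 enzymes was 0.62 (0.06 over all genes), with 7 of them in the top 1% of genes. For Tmem97 they were Aqp11, an aquaporin of the endoplasmic reticulum (r = 0.91, rho = 0.90), Eif2b3 of the translation factor eIF2B (0.89, 0.87) and Tmbim4 (0.88, 0.86). Its median r with 18 enzymes was 0.66 (0.10 over all genes), led by Idi1 at 0.82, but 0.24 in placebo livers alone and 0.85 in haloperidol livers alone. For Pgrmc1 the median was 0.14, from -0.58 in placebo to 0.81 in haloperidol livers, and without haloperidol 2T it was -0.12. The genes most like Pgrmc1 in liver were Mtpn (r = 0.90), Pex3, a peroxisome assembly gene (0.89), and Ugt2b36, a glucuronosyltransferase gene (0.88).

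In brain Tmem97 had the highest median r with the enzymes of the 4 members. Its median r with 18 enzymes was 0.71 against 0.13 over all genes, and 0.55 with the array median also removed. The same value was 0.57 for Ebp, 0.40 for Dhcr7 and 0.57 for Pgrmc1, against 0.16, 0.09 and -0.06 over all genes, and 0.36, 0.15 and 0.36 with the array median removed. With the tag digit removed instead, it was 0.47 for Tmem97, 0.42 for Ebp, 0.07 for Dhcr7 (0.08 over all genes) and 0.37 for Pgrmc1, and 1 enzyme rather than 9 had r over 0.70 with Tmem97. The genes most like Tmem97 in brain were Thoc3 (r = 0.94), Mfge8 (0.92) and Fig4 (0.91), and those most like Ebp were Rnd1 (0.86), Plpp1 (0.85) and Lgi1 (0.85). For Dhcr7 they were Tmem268 (0.85), Tmx4 (0.84) and Rcn1 (0.84). Pgrmc1 was most like Zfp637 (r = 0.97, rho = 0.95), Trappc2l (0.95, 0.88) and Mrpl54 (0.95, 0.89), and Msmo1 ranked at 9 for it (0.93). Zfp637, Trappc2l and Mrpl54 had brain changes of 0.32, 0.62 and 0.79 (limma adjusted p = 0.015, 0.00606 and 0.00525). For Pgrmc1 13.3% of all genes had r over 0.70 in brain.

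**Figure D5:**
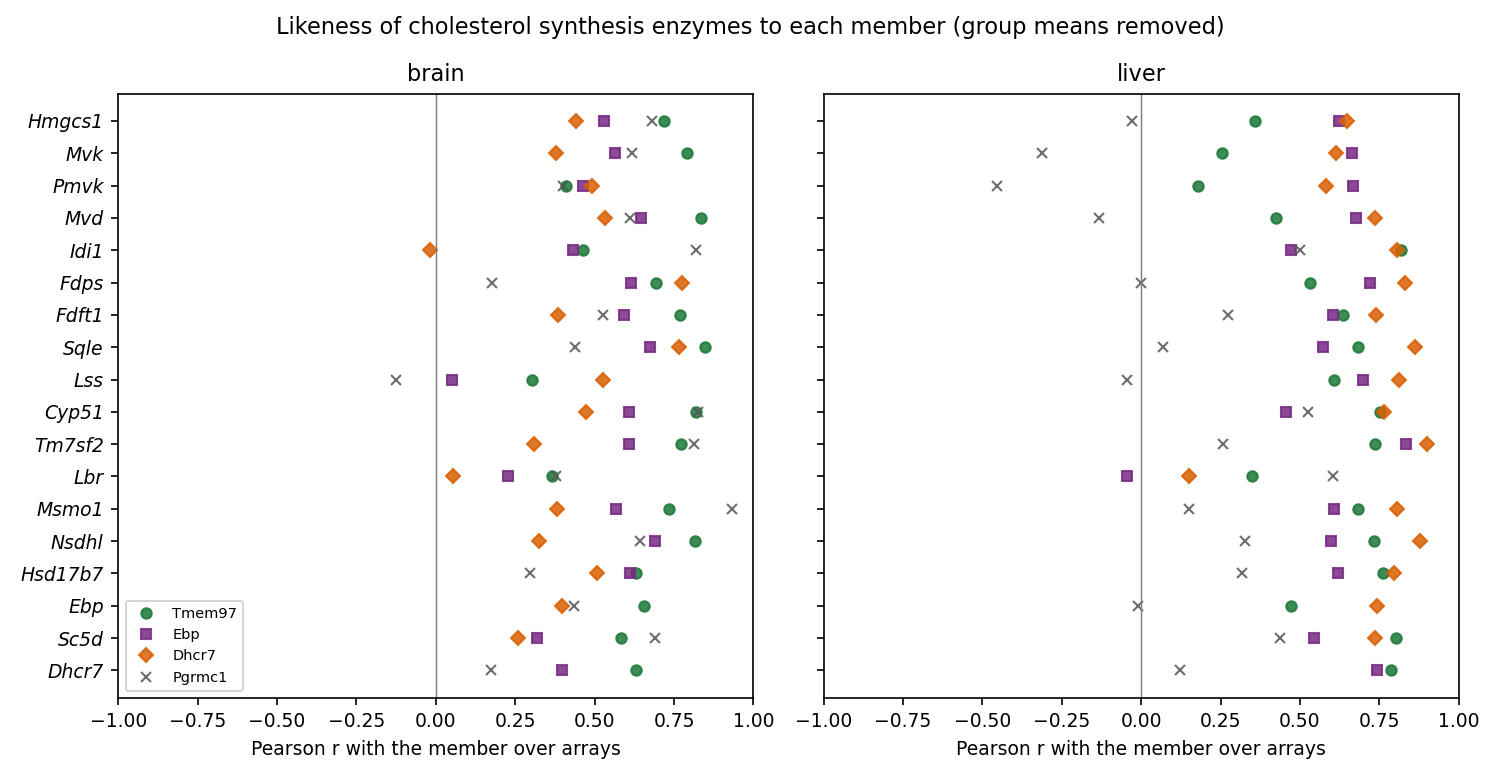
Pearson r (horizontal axis) over arrays, group means removed, between each cholesterol synthesis enzyme (rows) and Tmem97 (circles), Ebp (squares), Dhcr7 (diamonds) and Pgrmc1 (crosses), in brain (left, 20 arrays) and liver (right, 18 arrays). In liver Dhcr7 has r over 0.70 with 13 of 17 enzymes and Pgrmc1 with 0 of 18.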

How the data were processed

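Per the submitters' processing notes the authors computed the deposited log2 values by RMA, in the Expression Console of Affymetrix. The version and the array model: not given in the sources used here. Sorted values of any array lay within 0.208 (brain) or 0.234 (liver) of their tissue's mean distribution, and the tissues differed by up to 1.42. Of 35556 probes, 21218 had 1 gene symbol in the platform annotation of GEO, whose names may be outdated, 1881 several and 12457 none. The brightest probe per gene was used, and the 33.3% of genes with the lowest mean in a tissue were left out (below 5.52 in brain, 3.92 in liver). All 4 members passed in both tissues and matched RefSeq by Entrez ID. Treatments were compared with limma 3.58.1 in R 4.3.3, two-sided, Benjamini-Hochberg over all genes tested, threshold 0.05. The fits were also run on simulated data with noise drawn separately for each gene. That simulation held no array-wide difference, so it cannot show how such a difference affects the brain calls. Tissue differences used all 38 arrays. Correlations used 100000 permutations within groups.

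The members, lists and the 3 brain arrays left out as standing apart were chosen with earlier results of these data known. Genes named were the members, up to 6 called genes of each list or the 2 of smallest p, and the 3 genes most like each member; Lbr, Npc1, Insig1, Insig2, Stard4, Pgrmc2, Cyb5b, Hmox1, Sc5d, Nsdhl, Sqle and Fdps were named after their values were seen. Tissue, Gh and cell markers were checks. Astrocyte (1 of 6 higher), neuron (1 of 6 lower) and choroid plexus (2 of 5 higher) markers were also tested in brain. Of all brain genes 15.2% were higher and 15.2% lower. In brain 0 of 2 pituitary and 0 of 1 hepatocyte markers tested passed. In liver 0 passed of 5 hepatocyte, 7 Kupffer, 2 erythroid, 4 cholangiocyte, 4 endothelial and 1 neuron markers. Each array was taken as 1 mouse, and whether mice shared a litter or cage is not stated. The number of arrays limits the precision. Alternatives were the filter, normalization, covariates, blocks, variance model, weights, probes, test and arrays left out; the fit without 4T, the tag digit test, the other Tmem97 probe and the correlations within a treatment were added after seeing the data. Some genes of the lists are not reported here.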

Additional observations from a re-analysis of the deposited data

Results flagged for a closer look

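Among 62 sets of values, each a named gene in a group of 9 or 10 arrays, 4 held an array far from the others, and chance flags about 1 in 20 such sets. Tmem97 was at 10.16 in placebo liver 2B, the next value being 10.52. Dhcr7 was at 8.63 in haloperidol brain 4T, the array with high Alb, the next being 8.31. Pgrmc1 was at 11.51 in haloperidol liver 2T, the next being 11.72. Scap was at 9.65 in placebo liver 3L, the next being 9.05.

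The effect of haloperidol differed between tissues for 7 named genes in limma, given as liver change minus brain change. It was -0.35 for Pgrmc1 (limma adjusted p = 0.0189), -0.64 for Nenf (0.00186), -0.33 for Cyb5r3 (0.0208), -0.26 for Cyb5a (0.0284) and -0.45 for Tm7sf2 (0.0324). It was 0.60 for Tm6sf2 (0.0334) and 0.55 for Cyp46a1 (0.0483). The array medians moved in opposite directions in the tissues, and their part in these differences was not tested.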

How the results depend on the processing

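In liver each member kept a negative change and stayed above the threshold in all 12 alternatives, and the difference between tissues kept its sign for each member in 7. Pgrmc1 in brain passed in 12 of 15 alternatives; it was at 0.0204 with the array median as a covariate, -0.0178 with the first component and 0.254 without 3 brain arrays (placebo 1L, haloperidol 4N, haloperidol 4T), where 0, 0 and 2518 brain genes passed (3816 otherwise). With the array median as a covariate Tmem97 was at -0.229, Ebp -0.133, Dhcr7 -0.171, Cyp51 -0.0677 and Msmo1 -0.0643 in brain and Scap at -0.0205 in liver. With the first component Tmem97 was at -0.0418, Ebp -0.0448, Cyp51 -0.00757, Msmo1 -0.0367, Idi1 -0.133, Abca1 0.0257, Cyp46a1 0.00315, Mbtps1 0.0439, Scap 0.0416 and Srebf2 0.0492. With the array median subtracted Tmem97 passed at 0.324 and Abca1 was at 0.0253; this moved the median of all brain genes from -0.02 to 0.12 and the calls from 1911 higher and 1905 lower to 4088 and 467. Dhcr7 in brain was at -0.0201 with the tag digit as a replicate block, -0.00284 with array weights, -0.0335 without haloperidol 4T and -0.0459 without those 3 arrays, where Ebp was at -0.021. All 38 arrays in 1 fit called 40 liver genes. With the tag as a fixed replicate block the tissue difference of Pgrmc1 was -0.348 (limma adjusted p = 0.0523); the meaning of the tag is not given, and brain and liver deviations of the same tag correlated at a median of 0.00 over 18 tags (-0.32 to 0.25). The block ended the call of Pgrmc1, Tm7sf2, Cyb5a and Cyp46a1 among the tissue differences named. The cause of these shifts was not tested.

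Leaving out each array in turn gave brain changes of 0.258 to 0.334 for Pgrmc1, which passed in all 20, 0.126 to 0.222 for Tmem97, 0.0259 to 0.0887 for Ebp and -0.0335 to 0.0411 for Dhcr7, with 2869 to 4817 brain genes passing. In liver it gave -0.0958 to -0.0255 for Pgrmc1, -0.247 to -0.128 for Tmem97, -0.156 to -0.0895 for Ebp and -0.262 to -0.122 for Dhcr7, with 0 to 1 genes passing.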
